A study of Danio rerio with 28 samples.

Results

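The transcription factor genes nanog, pou5f3 and sox3 were followed in single sorted cells of zebrafish embryos, in wild type and in a tdrd6a mutant. They were chosen by name and are 3 of the 1017 genes in the deposited table. Each was described by its mean per plate of cells, by the share of cells that detected it and by its detection together with the others. At 8 and 24 hours post fertilization (hpf) the cells were also divided by whether they held transcripts of nanos3, a germ cell RNA that the table lists as germnanos3. In the reference tables nanog is gene ENSDARG00000075113 and pou5f3 is ENSDARG00000044774, while sox3 is NCBI gene 30529.

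Nanog is a homeodomain protein, Pou5f3 is the zebrafish POU factor related to mammalian Oct4, and Sox3 is an HMG box protein of the SoxB1 group. In zebrafish, maternally supplied Nanog, Pou5f3 and SoxB1 proteins, with Sox19b the main maternal SoxB1 member, open chromatin and switch on the first genes of the embryo when control passes from the egg's RNA to the embryo's own genome. Later, Pou5f3 acts in gastrulation and in patterning of the midbrain and hindbrain, and SoxB1 genes including sox3 mark neural progenitors.

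Germ cells had been sorted singly into Trizol and sequenced with CEL-seq, a 3' end method in which each well of a plate has its own barcode. The mutant embryos were spawned by maternal-zygotic tdrd6a-/- mothers, which lack a Tudor protein of the germ plasm, the maternal granules that mark germ cells. The wild-type mothers carried kop::egfp-f-nos1-3'UTR, a reporter that combines a germ cell promoter with a nanos untranslated region, and the design text does not say plainly whether mutant mothers carried it too. The transcript of tdrd6a was not analysed here, so the genotype rests on the labels.

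The 3.5 hpf stage was covered by 5 plates of 205 wild-type cells in all and 5 plates of 264 mutant cells. For 8 hpf the numbers were 4 plates (101 cells) and 4 plates (111 cells), and for 24 hpf 5 plates (196 cells) and 3 plates (156 cells). A wild-type plate of cells from 2 weeks post fertilization held 76 cells and entered no test. The plates are numbered in the labels but not said to come from separate clutches or days, so p-values measure the spread between plates, which may be technical.

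Each deposited value was 0.1 plus a whole number, and the whole number is given as transcripts below. The median total of a cell was 424 transcripts, and plate totals ranged from 1027 to 32018. The smallest plates held 2 cells (mutant plate 4 at 8 hpf), 4 cells (wild-type plate 1 at 3.5 hpf) and 6 cells (wild-type plate 3 at 8 hpf). The label "germ cells" was matched by germ cell markers in only a share of cells. Over all cells of a group, nanos3 was detected in 12.7% of wild-type and 10.6% of mutant cells at 3.5 hpf, 53.5% and 44.1% at 8 hpf, and 54.1% and 37.2% at 24 hpf. The germ cell helicase gene vasa was detected in 19.5% and 10.6%, 54.5% and 35.1%, and 37.8% and 19.2% of cells. Markers of other cell types were present as well, with a mean of up to 9.68 epidermal transcripts per cell in a mutant plate at 8 hpf and 10 in a mutant plate at 24 hpf. At 8 hpf muscle and blood markers reached 5.74 and 5.36 transcripts per cell in mutant plate 1, and at most 0.833 and 0 in any wild-type plate.

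nanog was detected in most cells at 3.5 hpf, and its mean level fell more than 10-fold by 8 hpf in both genotypes. In the wild type at 3.5 hpf, plates 1 to 5 held 1.5, 1.47, 1.55, 1.76 and 1.5 nanog transcripts per cell (1.56 ± 0.116, SD, n = 5). In the mutant the 5 plates held 0.743, 1.33, 1, 1.21 and 1.75 (1.21 ± 0.377, SD, n = 5). Wild-type plates lay close together, while mutant plates ranged from well below the lowest wild-type plate to just under the highest.

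By 8 hpf the wild-type plates held 0, 0.163, 0.167 and 0.16 nanog transcripts per cell (0.122 ± 0.0817, SD, n = 4). The mutant plates held 0.0851, 0.0833, 0.0385 and 0 (0.0517 ± 0.0407, SD, n = 4). No plate at 8 hpf came near any plate at 3.5 hpf, and the ratio of the means was 12.7 for wild type and 23.3 for the mutant.

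The drop in nanog between 3.5 and 8 hpf was −2.49 on the log2 scale in the wild type (SE 0.23, adjusted p = 8.55e-10 by limma over 910 genes) and −2.46 in the mutant (SE 0.23, adjusted p = 8.32e-10). These log2 differences are of plate means after 0.2 was added to the transcripts, so changes of low genes are understated. Of all tested genes 34.7% passed the same threshold of 0.05 in the wild type, 23.1% as lower at 8 hpf, and 32.5% passed in the mutant, 20.4% as lower. By size of drop, nanog ranked 10 of the 910 wild-type differences and 13 of those in the mutant. A lower plate mean can come from fewer cells that hold the RNA or from less RNA per cell, and plate means cannot tell these apart.

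The share of cells with a nanog transcript went from 82.1% ± 10.2 to 11.2% ± 7.73 in the wild type and from 70.6% ± 13.8 to 5.17% ± 4.07 in the mutant (SD over plates). Among the cells that detected nanog, the mean was 2.04 transcripts in wild-type cells at 3.5 hpf and 1.18 at 8 hpf, and 1.62 and 1 in mutant cells. At 3.5 hpf 20.5% of all wild-type cells held 3 or more transcripts, with at most 7 in a cell, and 10.6% of mutant cells did, with at most 4.

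At 24 hpf nanog was at the limit of detection. In the wild type it was listed at 0 in all 5 plates, that is in 0 of 196 cells, which by a limit of 3 counts allows detection in up to 1.53% of cells. This bounds cells with a detected transcript, since a cell can hold the RNA undetected. Set against this floor of 3 transcripts over the group, the pooled level was 8.41 times the floor at 8 hpf and 104 times at 3.5 hpf. These ratios leave out the error of the earlier levels, which at 8 hpf rest on 13 transcripts. In the mutant 1 of 156 cells held 1 transcript, in plate 3.

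The wild-type step from 8 to 24 hpf for nanog passed the threshold at −0.65 (SE 0.23, adjusted p = 0.0329 by limma), where 31% of the tested genes were called, 6.92% as lower. The plate at 0 at 8 hpf, wild-type plate 1, overlapped the 24 hpf plates. The call was lost without any single wild-type plate from 2 to 4 at 8 hpf (−0.58 to −0.57, adjusted p 0.0874 to 0.0998) and without any single wild-type plate from 2 to 5 at 24 hpf (−0.65, adjusted p 0.0519 to 0.0584). In the mutant the step was −0.28 (SE 0.27, adjusted p = 0.563) and did not pass, where 18.7% of genes did, 2.75% as lower. With voom on summed transcripts it was −2.95 (adjusted p = 0.0198), on a scale whose floor scales with the plate total.

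**Figure D1:**
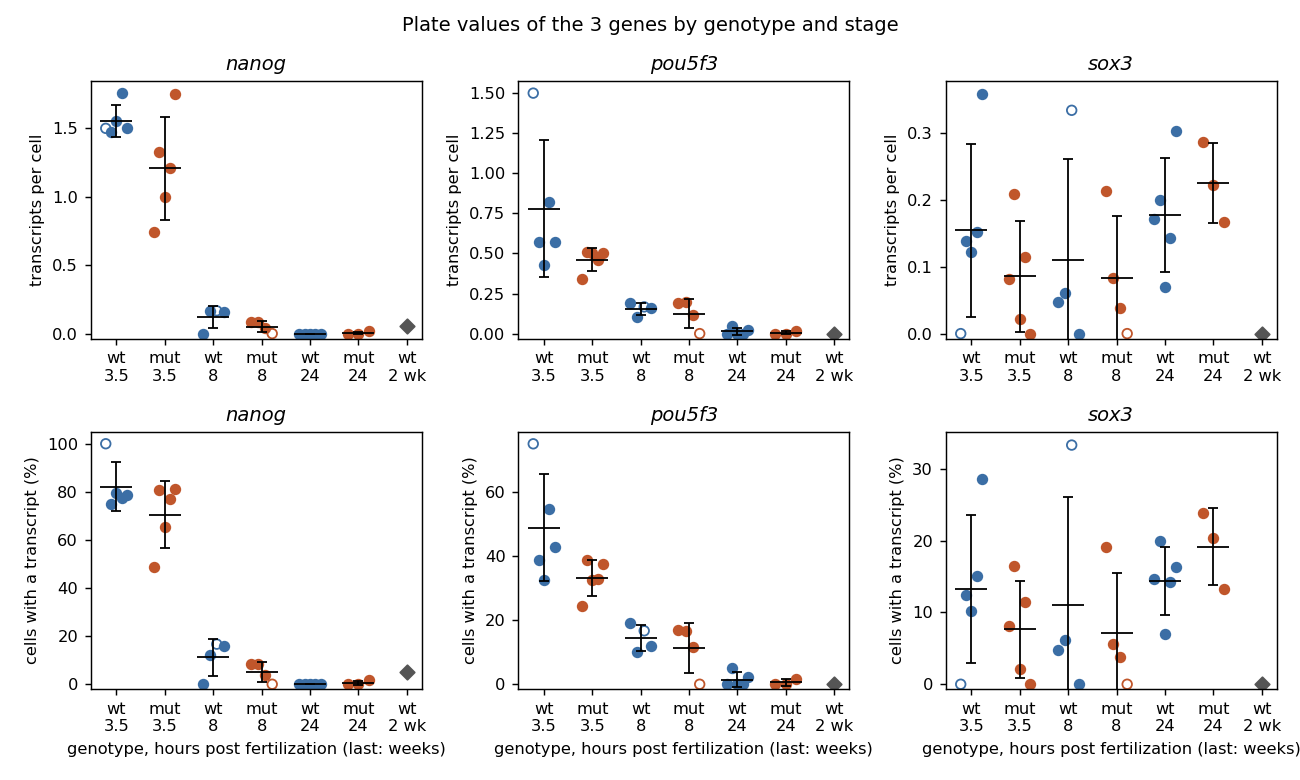
Mean transcripts per cell (upper row) and percent of cells with a transcript (lower row) for each gene, by genotype (wt, wild type; mut, mutant) and stage in hours, with the 2 week plate as a diamond. Points are plates, open points are plates under 10 cells, and lines are the mean and SD over plates (drawn only above 0). nanog and pou5f3 stood high at 3.5 hpf and near 0 at 24 hpf, while sox3 plates of all stages up to 24 hpf overlapped.

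pou5f3 was also highest at 3.5 hpf and fell by 8 hpf in both genotypes. At 3.5 hpf the wild-type plates held 1.5, 0.569, 0.429, 0.818 and 0.571 pou5f3 transcripts per cell (0.778 ± 0.428, SD, n = 5). The mutant plates held 0.338, 0.507, 0.5, 0.459 and 0.5 (0.461 ± 0.0714, SD, n = 5). The highest wild-type value belonged to the plate of 4 cells, and the genotypes overlapped.

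At 8 hpf the wild-type plates held 0.19, 0.102, 0.167 and 0.16 pou5f3 transcripts per cell (0.155 ± 0.0375, SD, n = 4) and the mutant plates 0.191, 0.194, 0.115 and 0 (0.125 ± 0.0912, SD, n = 4). Every plate at 8 hpf was below every plate of its genotype at 3.5 hpf. The fall was −1.38 in the wild type (SE 0.24, adjusted p = 4.6e-05 by limma) and −1.07 in the mutant (SE 0.24, adjusted p = 0.000975). Of all tested genes 23.1% and 20.4% were called lower in these steps. By size of drop, pou5f3 ranked 66 of the 910 wild-type differences and 114 of those in the mutant. The shares of cells with a transcript were 48.8% ± 16.7 and 33.2% ± 5.68 at 3.5 hpf, and 14.5% ± 4.09 and 11.3% ± 7.94 at 8 hpf, in wild type and mutant.

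At 24 hpf the wild-type plates held 0, 0.05, 0, 0 and 0.0233 pou5f3 transcripts per cell, which were 2 transcripts in 196 cells. The mutant plates held 0, 0 and 0.0167, which was 1 transcript in 156 cells. All wild-type plates at 24 hpf lay below all at 8 hpf, and the step was −0.72 (SE 0.24, adjusted p = 0.0224 by limma). Of all tested genes 6.92% were called lower in this step. pou5f3 lost the call without wild-type plate 1 at 8 hpf (−0.68, adjusted p = 0.0581).

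In the mutant the step of pou5f3 from 8 to 24 hpf was −0.61 (SE 0.28, adjusted p = 0.128). The plate of 2 cells stood at 0 at 8 hpf, and without it the step was −0.83 and passed (adjusted p = 0.0364). With mutant plate 1, which held the muscle and blood markers, also left out together with other plates under 10 cells, it was −0.78 (adjusted p = 0.0156).

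sox3 did not share this course. Its plates at 3.5 hpf held 0, 0.139, 0.122, 0.152 and 0.357 transcripts per cell in the wild type (0.154 ± 0.129, SD, n = 5) and 0.0811, 0.209, 0.0217, 0.115 and 0 in the mutant (0.0853 ± 0.0829, SD, n = 5). At 8 hpf they held 0.0476, 0.0612, 0.333 and 0 in the wild type (0.111 ± 0.151, SD, n = 4) and 0.213, 0.0833, 0.0385 and 0 in the mutant (0.0836 ± 0.0926, SD, n = 4). The highest wild-type value at 8 hpf came from 2 transcripts in the plate of 6 cells. Mutant plate 1 at 8 hpf, which held the muscle and blood markers, gave 10 of the 14 mutant sox3 transcripts.

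At 24 hpf the wild-type plates held 0.171, 0.2, 0.0702, 0.143 and 0.302 sox3 transcripts per cell (0.177 ± 0.0849, SD, n = 5) and the mutant plates 0.286, 0.222 and 0.167 (0.225 ± 0.0596, SD, n = 3). All groups overlapped, although at 24 hpf no plate was at 0 and at each earlier stage at least 1 plate per genotype was. At 3.5 and 8 hpf the plates at 0 held 4 and 25 wild-type cells and 16 and 2 mutant cells. Plates at 24 hpf held 20 to 57 wild-type and 42 to 60 mutant cells. The part of plate size in these values at 0 was not tested. In wild-type plate 5 at 24 hpf a single cell held 5 of the plate's 13 transcripts.

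None of the 4 stage steps of sox3 passed in limma. From 3.5 to 8 hpf it was −0.22 in the wild type (95% interval −0.80 to 0.36, adjusted p = 0.612) and −0.01 in the mutant (−0.59 to 0.56, adjusted p = 0.974). From 8 to 24 hpf it was 0.36 (−0.22 to 0.94, adjusted p = 0.369) and 0.63 (−0.03 to 1.28, adjusted p = 0.195), where 24.1% and 15.9% of tested genes were called higher. With the plates of 2, 4 and 6 cells left out both wild-type steps passed, at −0.70 (adjusted p = 0.0258) and then 0.65 (adjusted p = 0.0302).

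Ordered by mean level, nanog and pou5f3 stood highest in the wild type and then the mutant at 3.5 hpf, then in the wild type and the mutant at 8 hpf, and lowest at 24 hpf. In that order only the step from the mutant at 3.5 hpf to the wild type at 8 hpf separated neighbouring groups without overlap for nanog. The same held for pou5f3. How many of all tested genes separate groups in this way, here or in the plate ranges above, was not counted. The gaps can therefore not be called particular to these genes. For sox3 the order began with the mutant and the wild type at 24 hpf, followed by the wild type at 3.5 and 8 hpf and the mutant at 3.5 and 8 hpf, and all neighbours overlapped.

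Neural transcripts were also present in the plates at 24 hpf. The summed level of the 6 neural marker genes in the table (dla, dlb, elavl3, neurog1, tuba1c and tubb5) ranged from 0.737 to 1.97 per cell in wild-type plates and from 0.417 to 1.81 in mutant plates at 24 hpf. At 3.5 hpf the ranges were 0 to 0.0694 and 0.0149 to 0.0625, with 3 and 4 of the 6 genes at 0. At 8 hpf they were 0 to 0.143 and 0 to 1.06. The value of 1.06 belonged to mutant plate 1, which also held the muscle and blood markers. Muscle and epidermal markers were likewise higher at 24 hpf, at 2.69 and 4.82 transcripts per cell over all wild-type cells, against 0.0146 and 1.29 at 3.5 hpf. Epidermal levels overlapped by plate, with a wild-type plate at 6 at 3.5 hpf and the lowest at 2.8 at 24 hpf. Mesoderm and notochord markers were not higher in the wild type, at 0.151, 0.990 and 0.117 at 3.5, 8 and 24 hpf. In the mutant they stood at 0.117, 1.02 and 0.737. Mutant plates ranged from 0 to 0.209 at 3.5 hpf and from 0.648 to 0.867 at 24 hpf. The part of any of these cell types in the sox3 levels was not tested. In 8 plates at 24 hpf, 55 cells detected sox3.

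Of the 6 neural genes 5 were detected in a larger share of the sox3 cells than of the other cells in at least 5 of these 8 plates. Genes outside the neural list were not split in this way, so whether the count is particular to neural genes was not tested. The tubulin gene tuba1c was found in 48.4% ± 19.7 of sox3 cells and 22.3% ± 11.8 of other cells (SD over 8 plates), and was higher in sox3 cells in 6 plates. The Notch ligand gene dla was found in 27.9% ± 22.7 against 13% ± 7.38, also higher in 6 plates, and elavl3, an RNA binding protein gene of young neurons, in 29% ± 23.4 against 13.6% ± 12, higher in 5 plates. The proneural gene neurog1 was rarely detected, in 5.21% ± 9.9 against 2.27% ± 2.24, and was higher in 2 plates. Median totals were 579 transcripts in sox3 cells and 532 in the others, and the part of depth or cell type in these shares was not tested.

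None of the 3 genes differed between mutant and wild type past the threshold at any stage. At 3.5 hpf the difference of mutant minus wild type was −0.36 for nanog (95% interval −0.81 to 0.09, adjusted p = 0.892 by limma), −0.48 for pou5f3 (−0.95 to −0.01, unadjusted p = 0.0462, adjusted p = 0.825) and −0.28 for sox3 (−0.83 to 0.26, adjusted p = 1). The count was 0 of 3, where 0.22% of the 910 genes passed, all of them lower in the mutant. Without the wild-type plate of 4 cells the pou5f3 difference was −0.26.

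Mutant plate 1 at 3.5 hpf had the lowest nanog and pou5f3 of its group. Of its 74 cells 17 had fewer than 150 listed genes, and in these nanog stood at 0.294 transcripts per cell and mitochondrial genes took 34.4% of transcripts. Its other 57 cells held 0.877 nanog transcripts, still below the lowest other mutant plate. With cells under 150 genes left out of all plates the nanog difference was −0.34 (adjusted p = 1), and without the whole plate it was −0.23 (adjusted p = 1).

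At 8 hpf the differences were −0.33 for nanog (95% interval −0.83 to 0.17, adjusted p = 0.852), −0.17 for pou5f3 (−0.69 to 0.36, adjusted p = 0.957) and −0.08 for sox3 (−0.69 to 0.53, adjusted p = 1). Here 0 of the 910 genes passed by limma and 0 by voom, while 71 had an unadjusted p under 0.05 by limma. At 24 hpf they were 0.04 (−0.48 to 0.56), −0.06 (−0.60 to 0.49) and 0.19 (−0.44 to 0.82), each with an adjusted p of 1, and 0.11% of genes passed. At that stage nanog rested on 0 wild-type and 1 mutant transcripts and pou5f3 on 2 and 1. These were too few to compare the genotypes, so both results show nothing beyond detection near 0 in each. For pou5f3 and sox3 at 8 hpf the sign turned with plates weighted by their cells (0.13 and 0.33), and neither passed.

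The genotype difference did not change between stages past the threshold. From 3.5 to 8 hpf it changed by 0.03 for nanog, 0.31 for pou5f3 and 0.21 for sox3, and from 8 to 24 hpf by 0.37, 0.11 and 0.27 (adjusted p 0.988 to 1 by limma). No tested gene passed in either contrast, by limma or by voom, while 46 and 38 genes had an unadjusted p under 0.05 by limma. The intervals reached 1.01 and 1.02 for pou5f3 and sox3 in the first contrast. In the second they reached 1.09 for nanog, 0.87 for pou5f3 and 1.14 for sox3. Changes of these sizes could not be told from none.

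**Figure D2:**
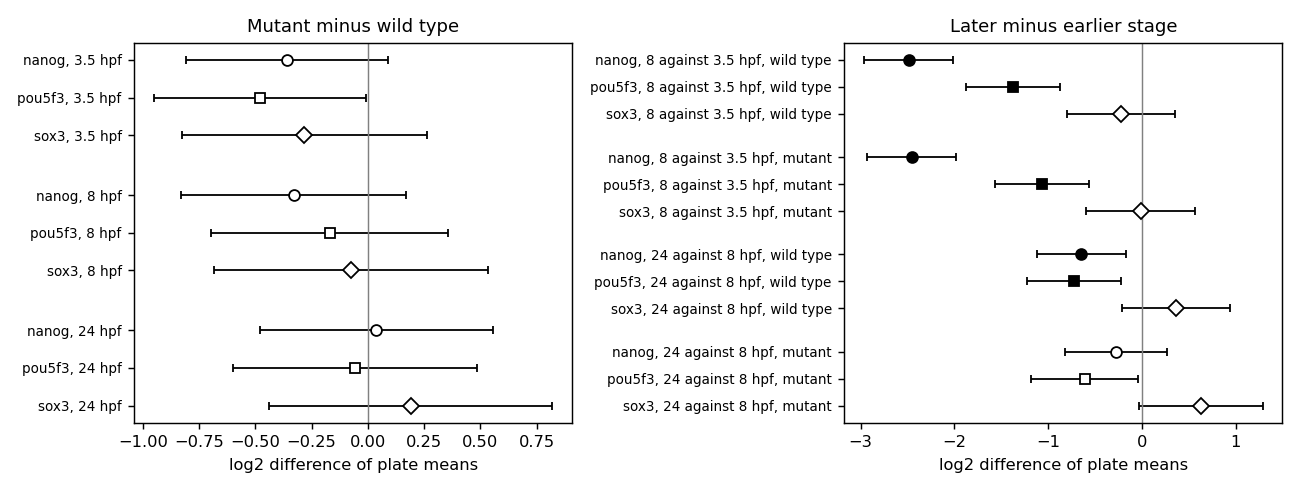
Log2 differences of plate means (points) with 95% intervals (bars) for nanog (circles), pou5f3 (squares) and sox3 (diamonds), with filled points past the threshold of 0.05. Left, mutant minus wild type at each stage, where all points are open. Right, later minus earlier stage, where nanog and pou5f3 are filled in 3 of 4 steps and sox3 in none.

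Cells with transcripts of more than 1 of the 3 genes were common at 3.5 hpf and absent from the 24 hpf plates. At 3.5 hpf 90.9% ± 6.58 of wild-type and 82.1% ± 13.7 of mutant cells held at least 1 of the genes (SD over plates), and 49% ± 16.4 and 27.3% ± 8.6 held at least 2. At 8 hpf 24.9% ± 5.84 and 19.6% ± 14.4 held at least 1, and 5 of 101 and 6 of 111 cells held at least 2. At 24 hpf 15.9% ± 6.58 and 20.3% ± 3.57 held at least 1, with sox3 in 26 of 28 and 29 of 31 such cells, and 0 of 196 and 0 of 156 cells held at least 2, which allows shares of up to 1.53% and 1.92%. The largest product of 2 single shares was then 0.276%, for pou5f3 and sox3 in the wild type. The 0 counts therefore show nothing on joint detection beyond the single shares.

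At 3.5 hpf the joint detection of nanog and pou5f3, as a mean over plates, was close to the product of the single shares. That product is what independence within a plate would give. How far the joint share could depart from this product differed between plates. nanog was detected in 48.6% of cells of mutant plate 1 and in 100% of cells of wild-type plate 1. In the wild type 72 of 205 cells held both (35.1%), with a plate mean of 41.3% ± 19.5 against a product of 41.2%. In wild-type plate 1 all 4 cells held nanog, so its joint share had to equal its product, at 75%. That plate could not lie above the product. In the mutant 60 of 264 cells held both, 23.2% ± 5.94 against 24.0%. The joint share lay above the product in 2 of 5 wild-type and 3 of 5 mutant plates. All 3 genes were found in 10 wild-type and 6 mutant cells. The pou5f3 share of cells with nanog was 44.4%, 35.9%, 52.9% and 36.4% in wild-type plates 2 to 5. Without nanog it was 22.2%, 20%, 60% and 66.7%. In mutant plates 1 to 5 it was 30.6%, 38.9%, 33.3%, 29.8% and 30.8% with nanog. Without nanog it was 18.4%, 38.5%, 31.25%, 42.9% and 66.7%. Plate 5 of each genotype had 3 cells without nanog. The direction thus differed between plates.

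At 8 hpf the joint share of nanog and pou5f3 in the wild type, with cells at their full totals, lay above the product. In the wild type 5 of 101 cells held both, a plate mean of 7.19% ± 7.11 against a product of 1.49%, above it in 3 of 4 plates. Without plate 3, where 1 of 6 cells held both, the mean was 4.03%. These were 5 of the 11 wild-type cells with nanog. With cells thinned to the same total, nanog was found in 8 of 54 wild-type nanos3-positive cells and 0 of 43 negative cells. pou5f3 was then found in 0 of 54 and 4 of 43. These counts leave no thinned wild-type cell with both genes. The part of depth in the joint share was not tested. In the mutant 2 of 111 cells held both, 1.23% ± 1.44 against 0.82%. The joint shares are described without a test, and with so few transcripts per cell a cell can hold RNA that was not detected.

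**Figure D3:**
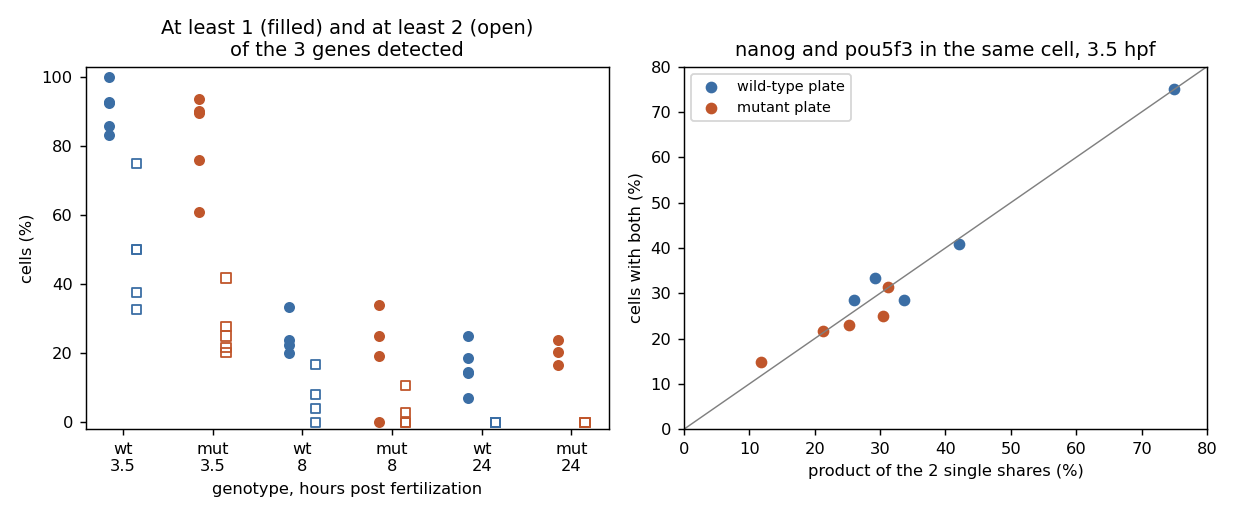
Left, percent of cells in each plate with at least 1 (filled circles) or at least 2 (open squares) of the 3 genes, by genotype and stage in hours; both genotypes have all squares at 0 at 24 hpf. Right, percent of cells with nanog and pou5f3 in each plate at 3.5 hpf against the product of the single shares, with the line of equality, near which all 10 plates lie. The wild-type plate of 4 cells, all with nanog, must lie on the line.

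At 8 hpf all nanog transcripts of the wild type lay in nanos3-positive cells. With cells at their full totals, pou5f3 and sox3 were found in both classes. Of 54 wild-type cells with a nanos3 transcript, pooled over 4 plates, 11 held nanog (20.4%, exact 95% interval 10.6% to 33.5%). These 11 cells held all 13 nanog transcripts of the stage. Of 47 wild-type cells without nanos3 none held nanog (exact 95% interval up to 7.55%). Both intervals treat the pooled cells as independent and leave out the spread between plates. Plate 1, where no cell held nanog, gave 18 of the negative and 3 of the positive cells. Median totals were 420 and 409 transcripts per cell, and with cells thinned to 250 transcripts nanog was found in 8 of 54 and 0 of 43 cells. In the same thinned classes pou5f3 was found in 0 of 54 and 4 of 43 cells, and sox3 in 1 of 54 and 3 of 43.

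In the mutant at 8 hpf 4 of 49 nanos3-positive cells (8.16%) and 4 of 62 negative cells (6.45%) held nanog. By plate, nanos3-positive and negative cells held 0 and 0, 0.258 and 0, and 0.267 and 0 nanog transcripts per cell in wild-type plates 1, 2 and 4. In mutant plates 1 to 3 the values were 0.143 and 0.0606, 0.05 and 0.125, and 0.0714 and 0. Positive cells were thus higher in 4 of 6 plates, lower in mutant plate 2 and equal in wild-type plate 1, which had 3 positive cells.

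Across these 6 plates the difference for nanog was 0.48 (95% interval 0.01 to 0.95, unadjusted p = 0.0463, adjusted p = 0.658 by limma with plate as a block) and failed the correction. None of the 3 genes passed at 8 hpf, where 0.33% of 909 genes did. These were the germ cell RNAs germdnd (1.67) and germtdrd7 (1.68) and the oocyte-type histone gene h1m (1.48), each higher in nanos3-positive cells. A difference of the nanog contrast between genotypes was not tested. In the wild-type plates alone the contrast was 0.81 (adjusted p = 0.678) and in the mutant plates alone 0.15 (adjusted p = 0.886).

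The 11 wild-type nanog cells at 8 hpf also held other germ cell RNAs. All 11 held nanos3, against 43 of the other 90 cells. The germ plasm RNA germtdrd7 was found in 10 of the 11 and 35.6% of the others, germvasa in 7 of 11 and 53.3%, and germdnd in 6 of 11 and 32.2%. Since germtdrd7 and germdnd were higher in nanos3-positive cells as such, these pooled shares do not separate nanog from nanos3. A comparison among nanos3-positive cells alone was not made. In the mutant 4 of 8 nanog cells held nanos3 and 4 of 8 held germtdrd7, against 43.7% and 28.2% of the other mutant cells.

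For pou5f3 at 8 hpf the nanos3-negative cells had the higher mean, and the difference did not pass. Its mean was 0.103 ± 0.0543 transcripts per cell in nanos3-positive cells and 0.190 ± 0.0827 in negative cells (SD, n = 6 plates), with negative cells higher in 5 of 6 plates. The difference was −0.36 (95% interval −0.85 to 0.13, adjusted p = 0.693 by limma). For sox3 at 8 hpf the means were 0.053 ± 0.0839 and 0.0944 ± 0.0918, a difference of −0.21 (−0.61 to 0.18, adjusted p = 0.796), with negative cells higher in 3 of 6 plates.

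At 24 hpf the single nanog transcript and 2 of the 3 pou5f3 transcripts were in nanos3-positive cells. These were too few to compare, with differences of 0.02 for both genes (adjusted p = 0.873 and 0.926 by limma). sox3 was found in 9 of 106 nanos3-positive (8.49%) and 17 of 90 negative cells (18.9%) of the wild type. In the mutant it was found in 10 of 58 (17.2%) and 19 of 98 (19.4%).

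Negative cells were higher for sox3 in 5 of 8 plates, with means of 0.216 ± 0.0471 in negative and 0.172 ± 0.145 in positive cells, and the difference of −0.26 did not pass (95% interval −0.72 to 0.19, adjusted p = 0.505 by limma). Wild-type negative cells had a higher median total than positive cells (578 against 462), and with cells thinned to 250 transcripts sox3 was found in 2.83% of positive and 7.78% of negative cells. Among all 909 genes 1.87% passed at 24 hpf. Of the listed germ cell genes germca15b (1.91), germdnd (1.29), germvasa (1.25) and h1m (1.18) were higher in the nanos3-positive cells.

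**Figure D4:**
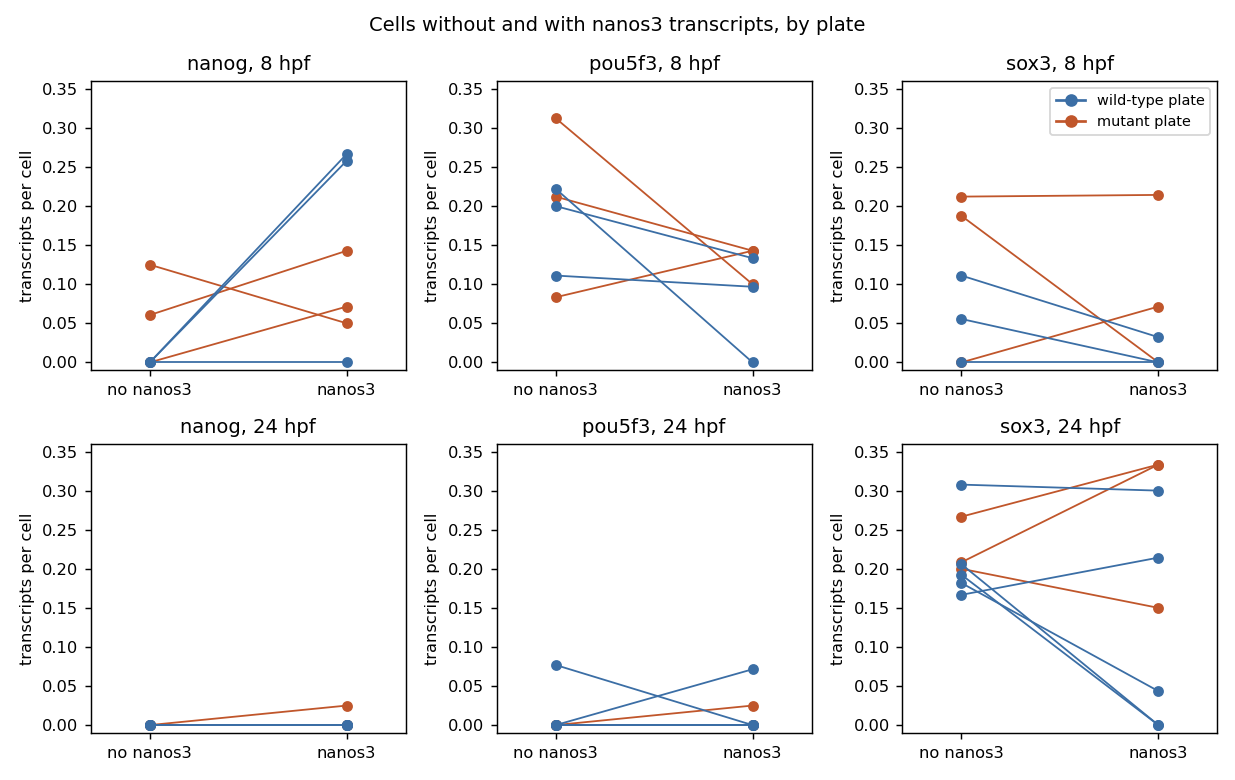
Mean transcripts per cell of the 3 genes in cells without and with nanos3 transcripts, at 8 hpf (upper row) and 24 hpf (lower row). Each line joins both classes of a plate with at least 3 cells in each, wild type or mutant. At 8 hpf nanog stood at 0 in nanos3-negative cells of all 3 wild-type plates and at 0.258 and 0.267 in positive cells of plates 2 and 4.

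Other regulators linked to pluripotency were mostly not in the table. Of a list of 43 such genes 3 were listed and tested, namely sall4, a zinc finger factor of stem and germ cells, hmga1a, a chromatin protein, and ep300a, a histone acetyltransferase. hmga1a rose from 3.5 to 8 hpf in the wild type (1.26, SE 0.29, adjusted p = 0.000922) and in the mutant (1.65, SE 0.29, adjusted p = 4.12e-05). Of all tested genes 11.6% and 12.1% were called higher in these steps. sall4 was at 0.04 in that step (adjusted p = 0.99) and fell from 8 to 24 hpf in the wild type (−1.40, SE 0.37, adjusted p = 0.00389), while in the mutant it was at −0.78 (adjusted p = 0.221). None of the 3 passed between genotypes, and ep300a passed in no contrast.

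Of 8 tested genes of the first zygotic wave, from a list of 78, 5 rose from 3.5 to 8 hpf in the wild type, with a median log2 difference of 0.88 against −0.02 for all tested genes, of which 11.6% were called higher. They were apoeb, an apolipoprotein gene (2.04), nop58, for ribosomal RNA modification (1.17), and the mesoderm and tail genes tbx16 (1.12), sp5l (0.92) and msgn1 (0.84). The antiproliferative gene btg2 fell (−2.05), and 2 genes did not pass. In the mutant apoeb, tbx16 and sp5l rose, where 12.1% of tested genes did, and btg2 fell. These 5 genes fell from 8 to 24 hpf in the wild type, from −0.92 for sp5l to −2.42 for apoeb, where 6.92% of tested genes fell. In the mutant 3 of them did, where 2.75% of tested genes fell. The list was chosen with earlier results of these data known, so its counts are a description and not a test.

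Maternal RNAs fell in the step in which nanog and pou5f3 fell. Of 9 tested maternal genes 8 were lower at 8 than at 3.5 hpf in both genotypes, where 23.1% and 20.4% of all tested genes were called lower. The medians of the 9 genes were −2.39 and −2.79, against −0.02 and 0.01 for all tested genes. The 8 included the claudin gene cldnd (−2.76 in the wild type), the zinc finger RNA binding gene cth1 (−2.68) and buc, the organizer of germ plasm (−1.61). Neural genes did not pass in that step. From 8 to 24 hpf all 4 tested neural genes rose in the wild type, namely tuba1c (1.33), elavl3 (1.06), tubb5 (0.99) and dla (0.76), and 2 of them, tubb5 and tuba1c, rose in the mutant. Of all tested genes 24.1% rose in that wild-type step and 15.9% in the mutant. The maternal and neural lists were likewise chosen with earlier results known, so their counts and medians are no independent test.

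Across the 26 plates the tested genes whose log2 plate means were most like those of nanog were zgc:55413 (Pearson r = 0.980), zgc:77112 (0.974), the acid phosphatase gene acp5a (0.970), cldnd (0.967) and the lysosomal membrane gene lamp2 (0.963). For pou5f3 they were lamp2 (0.948), zfand5b (0.922), nanog itself (0.921), cdca7a (0.916) and dvr1, a maternal TGF-beta ligand gene (0.916). These genes were all highest at 3.5 hpf. For example, lamp2 stood at 1.14 transcripts per cell in the wild type at 3.5 hpf, 0.197 at 8 hpf and 0.0719 at 24 hpf.

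For sox3 the closest genes were more distant, with mt-nd1 (0.695), mibp2 (0.686), atp5o (0.668), si:ch1073-429i10.3 (0.653) and mcm2 (0.652). Its own r was −0.133 with nanog and −0.220 with pou5f3. These coefficients describe plates that share a stage, a library and a depth, and carry no test.

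In the plate of 2 weeks post fertilization nanog was found in 4 of 76 cells (5.26%, exact 95% interval 1.45% to 12.9%), each with 1 transcript. pou5f3 and sox3 were found in 0 of 76 cells (exact 95% interval up to 4.74%). These cells carried vasa in 96.1% and piwil1, which encodes the germ cell Piwi protein Ziwi, in 82.9%, while nanos3 was found in 1.32%. Of the 4 nanog cells 4 held vasa and 2 held piwil1. Their median total was 486 transcripts, against 482 in the other cells. There was no second plate of this age and no mutant plate, so neither the spread nor a genotype difference could be given.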

How the data were processed

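The authors deposited 1 table of 1017 genes by 1203 cells from 28 libraries, and its unit is named signal here, since each value is a whole number plus 0.1 (tolerance 1e-06) and no normalization is stated. Whether the whole numbers count molecules or reads, how cells were chosen or scaled, and how deeply they were sequenced was not given in the sources used here. BWA and the build Zv9 are named, without roles, in the submitters' processing notes. RNA was extracted with Trizol and made into CEL-seq libraries, per the labels' protocols. Cells of all libraries share 1 list of 96 well barcodes, and 0 cell columns were identical. No genome of that build was used, so no coordinates or sequences are given.

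Plates were grouped by genotype and stage, 26 plates with 1033 cells. Left out were a plate labelled with 2 stages (45 cells), the 48 cells of 8 hpf mutant plate 1 described as heterozygous, and 1 cell beyond the listed barcodes. Genes with a plate mean of deposited values no lower than 0.2 in 3 or more plates entered the tests, 910 in all and the 3 genes among them. Limma 3.58.1 in R 4.3.3 (trend, robust, two-sided, Benjamini-Hochberg) took log2 of this mean plus 0.1, with the 6 groups in 1 fit. The nanos3 classes were compared within plates of at least 3 cells in each class. Exact binomial intervals came from scipy 1.17.1, and intervals and floors (3 counts) cover counting error only. On simulated data with a set plate spread, a limma fit was tried for the genotype contrast at 3.5 hpf only. It recovered 42.4% of 2-fold and 85% of 4-fold changes and called 6 unchanged genes. The other contrasts, the nanos3 classes and the shares were not tried in this way.

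The text names the 3 genes, nanos3, the 5 genes most correlated with each, and list members past the threshold, at most 5 per list and contrast. The genes and the lists were chosen with earlier results of these data known. The design assumed normalized values, and its test was kept for this unit. Alternatives were another pseudocount, no filter, weights, plate size, scaling, voom, detection, thinning, plate number as a block and leaving out each plate. Alternatives chosen after seeing the data were the extra cell and leaving out cells under 150 genes.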

Additional observations from a re-analysis of the deposited data

Results flagged for a closer look

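For 4 values, in 3 groups of plates, a single plate stood far from the nearest of the others relative to the range of the group (Dixon's ratio at its 95% critical value), which chance alone also gives in some groups of this size. Wild-type plate 4 at 3.5 hpf had the highest nanog level, at 1.76 transcripts per cell. In wild-type plate 1 at 3.5 hpf, of 4 cells, nanog was detected in 100% of cells. In wild-type plate 1 at 8 hpf, of 21 cells, nanog stood at 0, and 3 of these cells held nanos3. In mutant plate 1 at 3.5 hpf pou5f3 stood at 0.338 transcripts per cell, in the plate with 17 cells under 150 listed genes.

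In the plate of 2 weeks post fertilization, which entered no comparison, nanog was detected in 5.26% of cells, against 0 of 196 wild-type cells at 24 hpf. vasa was detected in 96.1% of the cells of 2 weeks and 37.8% of those at 24 hpf, so the cells compared differ in content. Of 40 cells at the last 48 barcodes of the plate labelled with both 8 and 24 hpf, 1 held nanog. With a single plate of 2 weeks, a difference between the ages was not tested.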

How the results depend on the processing

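The falls of nanog and pou5f3 from 3.5 to 8 hpf kept their direction and their call in both genotypes under all 22 alternatives run for each. All values are log2 differences unless given as percent, and the cause of each change was not tested. With a pseudocount of 1 the wild-type steps from 8 to 24 hpf were no longer called, at −0.15 for nanog (adjusted p = 0.271) and −0.17 for pou5f3 (adjusted p = 0.21). The mutant step of pou5f3 passed with plates weighted by cells (−0.84), with plates of at least 10 cells (−0.83), without 8 hpf mutant plate 1 and small plates (−0.78) and with voom (−3.96), where nanog also passed (−2.95). The wild-type steps of sox3 passed with plates of at least 10 cells (−0.70 and 0.65). They also passed without 8 hpf mutant plate 1 as well (−0.70 and 0.65). That setting left out no further wild-type plate, so the size of these differences could not change.

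Signs of differences that never passed turned as follows. With weights, the genotype difference at 8 hpf was 0.13 for pou5f3 and 0.33 for sox3, the sox3 mutant step to 8 hpf 0.0884, and the change of the genotype difference to 24 hpf −0.15 and −0.12. With plates of at least 10 cells these were 0.066, 0.37, 0.14, −0.12 and −0.18, and with voom 0.068, 0.90, 0.037, −0.61 and −0.53. Without 8 hpf mutant plate 1 and small plates, pou5f3 and sox3 differed by 0.0158 and 0.15 at 8 hpf, and the pou5f3 change was −0.0734 to 24 hpf. The nanog change to 8 hpf was −0.0802 rescaled and −0.0669 with voom, and its genotype difference at 24 hpf was −0.00804 with voom. Between nanos3 classes at 24 hpf pou5f3 stood at −0.0587 thinned and −0.00578 in wild-type plates, and sox3 at 0.13 in mutant plates. With voom the median of all genes went from 0.12 to −0.42 in the mutant step to 24 hpf, where 67 genes were then called higher and 134 lower, against 145 and 25 by the main test. In the wild-type step voom gave 174 higher and 143 lower, against 219 and 63. Rescaling moved the median to −0.16 and −0.20 in the steps from 3.5 to 8 hpf, with 89 higher and 249 lower for wild type (106 and 210 before) and 79 and 267 for the mutant (110 and 186 before). With 83 higher and 28 lower it also cut the calls of the mutant step to 24 hpf.

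Leaving out each plate gave −0.86 to −0.57 for nanog and −0.80 to −0.68 for pou5f3 in the wild-type step to 24 hpf, and −0.83 to −0.50 for pou5f3 in the mutant step. The nanog change to 8 hpf ranged from −0.18 to 0.16, the changes to 24 hpf from −0.11 to 0.22 for pou5f3 and −0.0278 to 0.47 for sox3, and the genotype differences at 8 hpf from −0.28 to 0.048 and −0.28 to 0.22. The sox3 mutant step to 8 hpf ranged from −0.21 to 0.14, and pou5f3 between nanos3 classes at 24 hpf from −0.0428 to 0.0872. Where a plate was left out, other groups lent their spread to small ones.

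With detection from 2 transcripts, nanog was found in 46.4% of wild-type and 34.8% of mutant cells at 3.5 hpf and in 1.02% and 0% at 8 hpf. pou5f3 was then found in 19.6% and 11%, and in 1% and 1.23%, and sox3 in 2.11% and 0.896% at 3.5 hpf and 1.88% and 3.32% at 24 hpf. At least 2 genes were then found in 5.97% and 4.64% of cells at 3.5 hpf and 0% of wild-type cells at 8 hpf. Thinned to 250 transcripts, nanog was found in 71.7% and at least 2 genes in 31.7% of wild-type cells at 3.5 hpf, pou5f3 in 3.97% of wild-type cells at 8 hpf, and sox3 in 5.35% and 5.96% of wild-type and mutant cells at 24 hpf.

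Plate numbers did not pair the plates. Deviations of same-numbered plates correlated at −0.407 to 0.317 (median 0.0302, 58 pairs), and with the replicate block the calls of the 3 genes were kept, with the sox3 mutant step to 8 hpf turning to 0.0441. With 1 or 2 transcripts in most cells that detect a gene, differences at 8 and 24 hpf rest on few transcripts, 13 of nanog in the wild type at 8 hpf.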

Other observations

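In cells that entered no comparison the 3 genes were found at low levels. Of the 48 cells of 8 hpf mutant plate 1 that are described as heterozygous, 2 held nanog, 6 held pou5f3 (12.5%) and 8 held sox3 (16.7%), and 11 held nanos3. Of 40 cells at the last 48 barcodes of the plate labelled with both 8 and 24 hpf, 1 held nanog, 0 held pou5f3, 7 held sox3 (17.5%) and 16 held nanos3. Of the 5 cells at its first 48 barcodes 0 held nanog, 2 held pou5f3 with 3 transcripts between them, 0 held sox3 and 3 held nanos3.

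At 3.5 hpf, where nanos3 was found in few cells, nanog was detected in 22 of 26 wild-type cells with nanos3 (84.6%) and 137 of 179 without (76.5%). In the mutant it was detected in 19 of 28 (67.9%) and 161 of 236 (68.2%). pou5f3 was detected in 42.3% and 43.6% of these wild-type cells and 28.6% and 32.6% of these mutant cells. Median totals were 386 and 366 transcripts for wild-type cells and 353 and 338 for mutant cells.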
